A study of Mus musculus with 20 samples.

Results

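The genes described here are 10 members of 2 axon guidance systems, followed in the mouse habenula from embryonic day (E) 11 to the adult. They are the netrin receptors Dcc, Unc5c and Unc5d, the netrin ligand Ntn1, the neuropilins Nrp1 and Nrp2, the semaphorins Sema3c, Sema3f and Sema5a, and the plexin Plxna4. They were chosen by symbol, with earlier results of these data known. Each of the 10 has 1 row among the 37994 genes of the developmental table and 1 row among the 36104 genes of a second table from E18. Wells of 384-well plates, each meant to hold a single cell, were measured by CEL-Seq2, a method that tags the 3′ side of each polyadenylated RNA with a unique molecular identifier (UMI), so that copies made by amplification are counted once.

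The developmental series came from the Brn3a-tauLacZ mouse line and covers E11, E12, E13, E15, E18, postnatal day (P) 4, P7 and the adult, with 1 plate at E12 and 2 plates at every other stage. Brn3a is the older name of Pou4f1, a transcription factor of habenular neurons, and the line places a tau-lacZ reporter at that gene. Whether the mice of each stage carried 1 or 2 copies of the reporter was not stated and was not tested. Pou4f1 itself was counted on all 15 plates of the series. It stood at 149 to 838 counts per 1000000 over all wells that passed the quality filters. The wells were classed by this same gene, and what the reporter does to its counts was not tested. The second set is from E18 embryos of the C57BL/6 strain: 2 plates hold the left side, 2 the right side and 1 both sides together. The plate of both sides has E1 in its title and E18 in its other labels, and was taken as E18. No treatment is named for any group, and every group was labelled as habenula. Levels are given as counts per 1000000 (CPM) of a plate's summed wells, in wells with at least 1 Pou4f1 count (Pou4f1-positive wells) unless stated otherwise. The plate was the replicate. Nothing in the labels says that the plates of a stage came from separate animals or pools, so p-values measure only the spread between plates, which may be technical. Differences between plates of neighbouring stages may also come from the mix of cell types, since fewer cells expressing a gene and less RNA per cell cannot be told apart in a plate's sum. The labels do not say which plates shared a sequencing run. Differences between stages may therefore include differences between runs, which was not tested.

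Quality filters kept 3729 of 5756 wells of the series, of which 2933 were Pou4f1-positive, and 1082 of 1920 wells of the C57BL/6 set, of which 727 were positive. Positive wells of a plate summed to between 556190 counts (adult plate 1, 21 wells) and 7421718 counts (P7 plate 1, 296 wells). A neuronal list (Tubb3, Stmn2, Snap25 and 7 more) had all 10 genes detected in the positive wells of every plate, and so were the 7 genes other than Pou4f1, which chose the wells, of a habenular list (Gng8, Nhlh2, Irx1 and 4 more). Some plates stood apart. On E18 plate 1 only 28.1% of kept wells were positive, on adult plate 1 37.5%, on E13 plate 2 51.1% and on adult plate 2 52.6%, against 71.2% to 92.2% on the other plates of the series. On adult plate 1 only 14.6% of wells were kept, and the median mitochondrial share of its positive wells was 10.8%, against 4.7% to 6.5% on the other plates of the series. The positive wells of E18 plate 1 and E13 plate 2 held the highest sums of a choroid plexus and ependymal list (Ttr, Foxj1, Folr1 and 4 more), 1432 CPM on E18 plate 1 and 2487 CPM on E13 plate 2, against 2.2 to 18.6 CPM on the other 13 plates of the series. The positive wells of adult plate 1 held 2739.9 CPM of a 9-gene oligodendrocyte list (Mbp, Mog, Mag and others), against 402 CPM on adult plate 2 and at most 123 CPM at earlier stages of the series.

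Netrin-1 is a secreted guidance cue: DCC on the growing axon turns it towards the source, and UNC5 receptors, alone or with DCC, turn it away. Class 3 semaphorins such as SEMA3C and SEMA3F are secreted and bind neuropilins, which have no signalling domain of their own and pass the signal through A-type plexins such as PLXNA4; neuropilin-1 also serves vascular growth factor in endothelium. SEMA5A is a membrane-bound semaphorin. Habenular axons leave for the midbrain in the fasciculus retroflexus, a tract whose formation in mice is known to need Nrp2 and Sema3f, and Dcc with Ntn1.

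The promoters of Nrp2 and Sema5a are shown because these were the 2 genes whose levels rose between E11 and P7. Both are RefSeq sequences on GRCm38.p6, plus strand, 5′ to 3′, ending at the base before the annotated gene start. Capitals mark the GC box, GGGCGG on either strand (CCGCCC on the other), a binding motif of SP-family factors, with overlapping matches joined.
Nrp2: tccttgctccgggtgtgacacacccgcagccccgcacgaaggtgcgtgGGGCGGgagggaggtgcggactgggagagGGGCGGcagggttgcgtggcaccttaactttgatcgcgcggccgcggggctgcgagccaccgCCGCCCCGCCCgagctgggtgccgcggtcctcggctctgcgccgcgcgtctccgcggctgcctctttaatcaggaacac
Sema5a: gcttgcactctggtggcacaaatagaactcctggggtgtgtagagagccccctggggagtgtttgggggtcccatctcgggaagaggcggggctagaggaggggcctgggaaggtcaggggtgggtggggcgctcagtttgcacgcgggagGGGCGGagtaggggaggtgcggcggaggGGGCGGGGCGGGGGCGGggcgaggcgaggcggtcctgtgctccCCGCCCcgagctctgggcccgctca

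The Nrp2 stretch is chr1:62703067-62703284, 218 bases with 4 GC boxes, 28 CpG dinucleotides and 72.5% G + C. The Sema5a stretch is chr15:32244563-32244809, 247 bases with 5 GC boxes, 17 CpG dinucleotides and 71.7% G + C. RefSeq promoter windows were matched for 5 of the 10 genes (Unc5c, Nrp1, Nrp2, Sema3c and Sema5a), and a GC box was found in 4 of them, in all but Unc5c, against 32.9% of 27025 promoters of the table. Across all these promoters the median was 52.0% G + C and 6 CpG dinucleotides. The homeodomain core TAATTA, searched on both strands, was found in 0 of the 5 windows and in 4.90% of all promoters. The longer ATAATTAAT, a motif described for BRN3 factors which contains TAATTA, was found in 0 of the 5 and in 0.252% of all promoters.

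The table of the authors splits each gene's counts into spliced and unspliced, and the 10 genes differed widely in that split. For Dcc, 99.4% of its 149532 counts in the kept wells of the series were unspliced, and only 65 of 8483 genes at 20 CPM or more had a higher share. Dcc lies on chromosome 18 from 71253634 to 72351069 (GRCm38, minus strand), spans 1097 kb and overlaps no other annotated gene. The receptors Unc5d (88.3%) and Unc5c (79.9%) and the plexin Plxna4 (59.9%) also held mainly unspliced counts. Shares were 46.9% for Nrp1, 44.2% for Ntn1, 36.7% for Sema5a, 28.7% for Sema3c and 28.2% for Nrp2. Sema3f, the shortest of the genes at 29.0 kb, was lowest with 8.48%. Over all counts of these wells the share was 23.1%, the median gene had 10.8%, and the 501 compared genes of 300 kb or longer had a median of 76.2%.

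**Figure D1:**
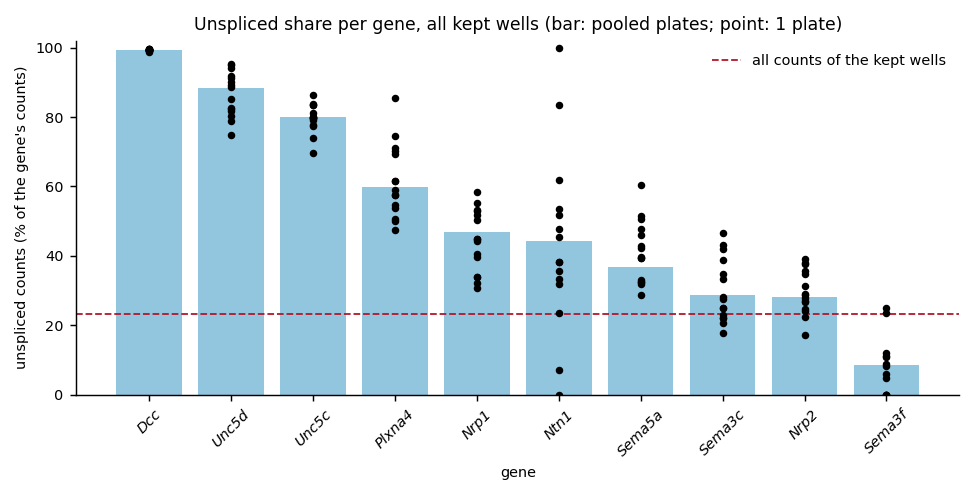
Share of each gene's counts that were unspliced (y axis, %), all kept wells of the 15 series plates; bars pool the plates, points are single plates and the dashed line is the share of all counts. Dcc sits at 99.4% on a narrow range of plates, and Sema3f (8.48%) is the only gene whose pooled share lies under the line at 23.1%.

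The share for Dcc lay between 98.6% and 99.6% on every plate, over all kept wells. Spliced Dcc counts were few, 1.7 to 59.9 CPM of all counts in positive wells. Tested alone, spliced Dcc counts fell by 2.32 on the log2 scale from E18 to P4 (adjusted p = 0.00334 by edgeR's quasi-likelihood test), and all Dcc counts fell by 2.34.

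Several of the genes overlap other annotated genes, and it is not stated whether the counting used strand, so these counts carry an uncertain share of the neighbours' reads. Unc5c (chromosome 3, 141465216 to 141834924, plus strand) overlaps Gm43826, Gm15688 and Gm15689. Unc5d (chromosome 8, 28646717 to 29219636, minus strand) overlaps Svet1, Gm45652 and Gm9911 on its own strand. Ntn1 (chromosome 11, 68209364 to 68400823, minus strand) overlaps Gm12305 and Mir6406, and Nrp1 (chromosome 8, 128358604 to 128503363, plus strand) overlaps Mir1903. Nrp2 (chromosome 1, 62703285 to 62818695, plus strand) overlaps Gm37121 and Gm29083, Sema5a (chromosome 15, 32244810 to 32696341, plus strand) overlaps 4930465K09Rik, and Plxna4 (chromosome 6, 32144268 to 32588192, minus strand) overlaps 3 antisense genes, Plxna4os1, Plxna4os2 and Plxna4os3. Sema3c (chromosome 5, 17574281 to 17730268, plus strand) and Sema3f (chromosome 9, 107681500 to 107710475, minus strand) overlap none.

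All 10 genes differed between the 7 stages with 2 plates (edgeR's quasi-likelihood F test, Benjamini-Hochberg adjusted p from 4.30e-06 for Nrp2 to 0.0101 for Unc5c). The background to this count is wide, since 49.4% of the 16353 genes tested differed by the same test. Between neighbouring stages, E11 to E13 called 3 of the 10 genes against 1.78% of all genes, 2 higher (1.05%) and 1 lower (0.734%). E18 to P4 called 5 against 20.4%, 2 higher (9.97%) and 3 lower (10.4%). P7 to adult called 2 against 3.68%, 1 higher (1.35%) and 1 lower (2.34%). None of the 10 was called from E13 to E15 (0.110% of all genes; 0.0673% higher, 0.0428% lower), from E15 to E18 (0.159%; 0.104% higher, 0.0550% lower) or from P4 to P7 (0.00612%; 0.00612% higher, 0% lower). From E11 to P7, a comparison that shares its plates with the others, 6 were called against 35.0% of all genes, 2 higher (18.8%) and 4 lower (16.2%). At an unadjusted p under 0.05, the 3 comparisons with none called had 5, 1 and 0 of the 10 genes and 1904, 1860 and 551 of all 16353, and DESeq2 called 2, 0 and 0 of the 10 and 330, 228 and 39 of all genes.

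**Figure D2:**
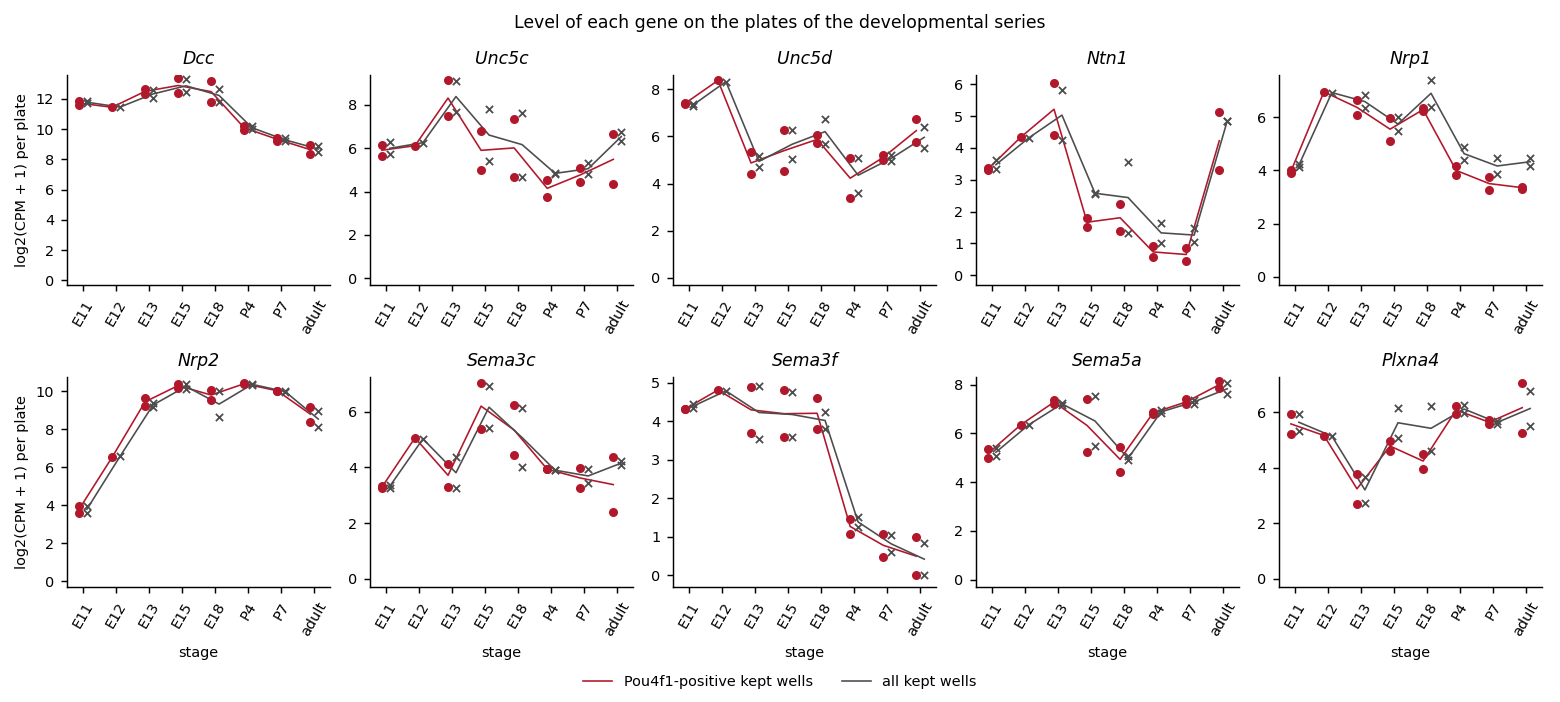
Level of each of the 10 genes, log2(CPM + 1), on the plates of the series by stage; red points are the Pou4f1-positive wells of 1 plate, grey crosses all its kept wells, and lines join stage means. Dcc and Sema3f drop between E18 and P4, Nrp2 climbs between E11 and E15, and Ntn1 is near 0 at P4 and P7.

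Of the Dcc counts in positive wells 99.3% were unspliced, and the spliced ones were 1.7 to 59.9 CPM of all counts. Dcc, the attractive netrin receptor, had high total counts throughout embryonic life and fell around birth. Its level was 3661 and 3111 CPM on the 2 plates of E11 and 2775 CPM on the plate of E12. It was 6520.3 and 5085 CPM at E13, 10458 and 5427 CPM at E15, and 9136 and 3529 CPM at E18. After birth it was 1001 and 1169 CPM at P4, 688 and 592 CPM at P7, and 497 and 319 CPM in the adult. All 9 embryonic plates therefore lay above all 6 later plates, and each later stage lay below the one before it without overlap. The plates of E13, E15 and E18 overlapped with one another, and the 2 plates of E18 were far apart. Dcc fell 5.06-fold from E18 to P4 (log2 change -2.34 ± 0.41, SE; adjusted p = 0.00274, edgeR), and by 1.59 on the log2 scale (adjusted p = 0.0174) without E18 plate 1. From E11 to P7 it also fell, by 2.34 ± 0.41 (adjusted p = 0.00103). The further decline from P4 to P7 (-0.76 ± 0.39) and from P7 to the adult (-0.80 ± 0.40) did not pass the test across all genes.

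Lists of neuron types also moved between E18 and P4 in the positive wells. A medial habenular list (Tac1, Tac2, Chat and 7 more) summed to 172 and 899.97 CPM at E18, with 2 genes at 0 on plate 1, and to 3279.6 and 3419.8 CPM at P4. A lateral habenular list (Pcdh10, Gap43, Htr2c and 5 more) summed to 1207 and 969 CPM at E18 and to 372 and 273 CPM at P4. A thalamic list (Gbx2, Rora, Tcf7l2, Slc17a6 and others) summed to 4864 and 3138 CPM and to 2081 and 2244 CPM. These sums do not name cells. Gap43 is also in the neuronal list, and the lateral list was highest at E11 (3114 and 3151 CPM). The thalamic list summed to 2564 and 3430 CPM in negative wells of the 2 E18 plates. E18 plate 1, where Dcc was higher than on plate 2, also held 2056 CPM of neural progenitor and 1033 CPM of astrocyte genes, against 248 and 173 CPM on plate 2. The part of these lists in the E18 to P4 changes of Dcc and of the genes below was not tested.

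Single wells of the series were compared as well, by total Dcc counts, spliced and unspliced together. With every well thinned to 2000 counts, only wells that still held a Pou4f1 count were taken as positive. Thinned and unthinned shares therefore cover different wells, 25 against 70 on E13 plate 2. After thinning, Dcc was detected in 86.9% to 100% of positive wells on its embryonic plates. The corresponding share was 73.5% and 76.3% at P4, 59.9% and 51.8% at P7, and 33.3% on adult plate 2 (adult plate 1 kept only 7 such wells). Without thinning, the range was 96.3% to 100% on embryonic plates and 71.1% to 95.5% later. On the 5 C57BL/6 plates at E18 the thinned share for Dcc was 72.0% to 87.6%, which overlapped the P4 plates of the series, and without thinning Dcc was detected in 38 of 40 wells on the lowest plate and 151 of 154 on the highest.

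Unc5c, a receptor for the repulsive response to netrin, had its highest levels at E13. It was measured at 70.3 and 49.5 CPM at E11, 68.4 CPM at E12, 179.6 and 559 CPM at E13, 110.4 and 31.1 CPM at E15, and 164 and 24.3 CPM at E18. Later values were 22.1 and 12.7 CPM at P4, 33.4 and 20.6 CPM at P7, and 98.9 and 19.2 CPM in the adult. Both E13 plates exceeded every other plate, the E18 plates lay above the P4 plates, and P4, P7 and adult plates overlapped. No step between neighbouring stages passed the test for Unc5c, E11 to E13 (2.48 ± 0.82, adjusted p = 0.156) and E18 to P4 (-2.18 ± 0.88, adjusted p = 0.0971) included. The stage difference of Unc5c was lost without E13 plate 2. That plate had the highest sum of the choroid plexus and ependymal list, with E18 plate 1 next. The part of this list in the Unc5c result was not tested. In negative wells of E13 plate 2 Unc5c was also at 547 CPM.

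Unc5d, a related repulsive receptor, was highest in the youngest embryos of the series. Its plates measured 172 and 163 CPM at E11, 331 CPM at E12, 39.6 and 20.2 CPM at E13, 21.8 and 76.7 CPM at E15, and 64.9 and 51.0 CPM at E18. They measured 33.0 and 9.3 CPM at P4, 30.9 and 36.4 CPM at P7, and 106 and 52.8 CPM in the adult. The 3 plates of E11 and E12 were thus above all later plates, with no overlap. Unc5d fell 4.78-fold from E11 to P7 (-2.26 ± 0.56, adjusted p = 0.00800), and from E11 to E13 the change was -2.57 ± 0.61 and missed the threshold (adjusted p = 0.0559), which it passed in 15 of 28 alternatives, DESeq2 and thinned wells among them. With spliced counts alone the Unc5d change from E11 to P7 was -1.08 with an adjusted p of 0.167, and it missed the threshold without either P7 plate (adjusted p = 0.0824 and 0.05997).

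Ntn1, the ligand itself, was scarce in Pou4f1-positive wells, and its time course rests on few counts. Levels were 8.9 and 9.3 CPM at E11, 19.3 CPM at E12, and 64.2 and 20.2 CPM at E13. They were 1.9 and 2.5 CPM at E15, 3.7 and 1.6 CPM at E18, 0.88 and 0.47 CPM at P4, and 0.81 and 0.37 CPM at P7, where the 2 plates held 6 and 2 counts. Adult plates held 34.2 and 9.0 CPM, from 19 and 36 counts. No plate from E15 to P7 reached the lowest of the other plates. Ntn1 fell 13.5-fold from E11 to P7 (-3.76 ± 0.77, adjusted p = 0.00276), a call lost in thinned wells (-1.73, adjusted p = 0.325) and resting on a P7 plate 2 below the floor of 3 counts, and rose from P7 to the adult (4.68 ± 0.81, adjusted p = 0.00875), while the drop from E13 to E15 was -4.13 ± 0.75 with an adjusted p of 0.0595.

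The adult rise of Ntn1 was the least secure of these calls. With wells thinned to 2000 counts its sign turned (-2.90), but that fit cannot decide the direction. Adult plate 1 kept 7 thinned positive wells and did not enter, and those of adult plate 2 summed to 174000 counts in all. The adult rise also missed the threshold without P7 plate 1 or P7 plate 2. In negative wells Ntn1 was at 9.9 and 102.9 CPM in the adult and at 23.6 and 15.9 CPM at P7. Without adult plate 1, the plate of high mitochondrial share, the rise was 3.72 (adjusted p = 0.0329). The oligodendrocyte list, which holds the myelin gene Mbp, summed to 2739.9 and 402 CPM in the adult positive wells and to 123 and 28.3 CPM at P7; its part in the Ntn1 result was not tested.

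**Figure D3:**
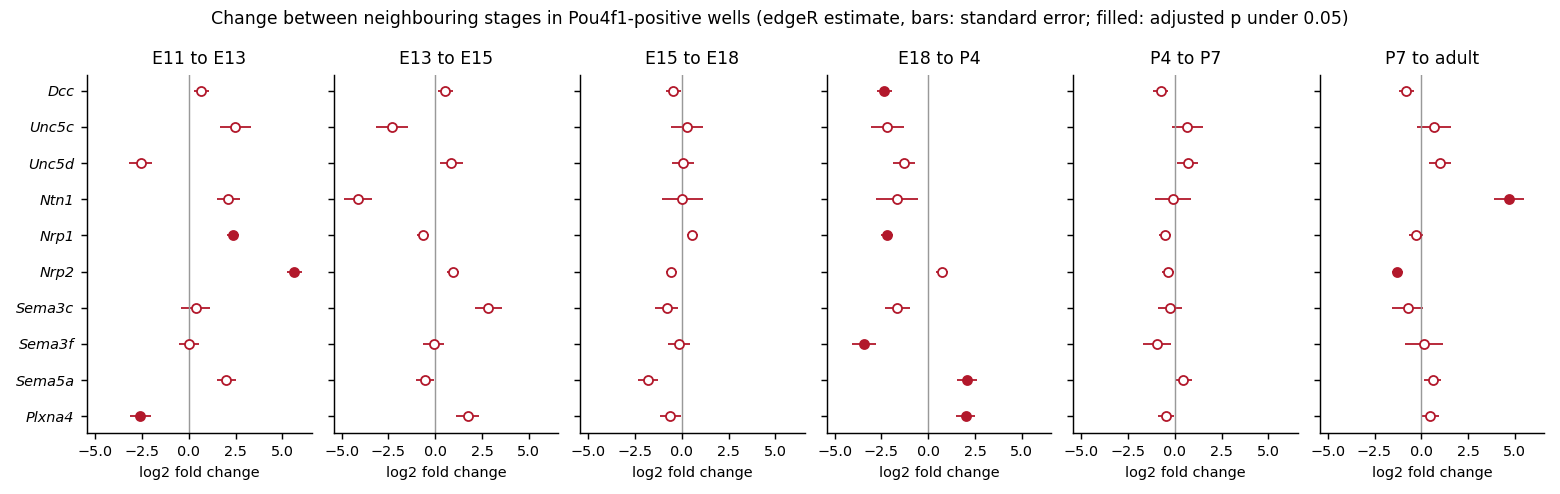
Change of each gene between neighbouring stages in Pou4f1-positive wells, as edgeR's log2 fold change (x axis; right means higher at the later stage) with its standard error; filled points have an adjusted p under 0.05. The filled points are Nrp1, Nrp2 and Plxna4 from E11 to E13, Dcc, Nrp1, Sema3f, Sema5a and Plxna4 from E18 to P4, and Ntn1 and Nrp2 from P7 to the adult.

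Nrp2, the neuropilin that binds SEMA3F, had the largest change of the 10 genes from E11 to E13. It was nearly undetected at E11, with 11.1 and 14.6 CPM, and reached 90.8 CPM on the E12 plate. By E13 it stood at 606 and 801 CPM, by E15 at 1173 and 1350.5 CPM, and at E18 at 751 and 1058 CPM. It held at 1322 and 1375 CPM at P4 and at 1041 and 1044 CPM at P7, and was 336 and 585 CPM in the adult. Every plate from E13 on was thus above the E11 and E12 plates, and the adult plates lay below all others from E13 on. The medial habenular list summed to 259 and 239 CPM at E11, 689 and 942 CPM at E13 and 4301 and 4228 CPM at P7. The lateral list went from 3114 and 3151 to 1690 and 833 and to 407 and 500 CPM, and the neuronal list from 15607 and 15661 to 11722 and 8200 and to 6345 and 6550 CPM. The part of these lists in the changes from E11 was not tested for Nrp2 or the other genes. Nrp2 rose 50.2-fold from E11 to E13 (5.65 ± 0.38, adjusted p = 4.81e-05) and 84.6-fold from E11 to P7 (6.40 ± 0.39, adjusted p = 9.26e-07). Both calls held under all alternatives tried, 28 for E11 to E13 and 27 for E11 to P7.

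The share of single wells with an Nrp2 count was also higher at E13 and E15 than at E11 and E12. In positive wells thinned to 2000 counts it was 1.8% and 1.7% on the E11 plates and 15.2% on the E12 plate. It was 60.7% and 68.0% by E13 and 83.7% and 89.1% by E15. Unthinned, with more wells classed as positive, the same plates gave 9.5% and 10.9%, 45.2%, 84.4% and 92.9%, and 97.4% and 98.9%. The 2 plates of E18 were apart, with thinned shares of 54.1%, below both E13 plates, and 89.9%. Later thinned shares were 88.2% and 90.5% at P4, 81.4% and 78.3% at P7, and 66.7% on adult plate 2. Adult plate 1 had 2 of 7 wells and did not enter the fits of thinned wells. The adult decline of Nrp2 was 2.42-fold (-1.27 ± 0.31, adjusted p = 0.0438) and close to the threshold. It failed in 14 of 27 alternatives, among them all kept wells (adjusted p = 0.0770), thinned wells (-0.56, adjusted p = 0.656) and leaving out adult plate 1 (-0.91, adjusted p = 0.216), P7 plate 1 (0.233) or P7 plate 2 (0.239). For Nrp2 the adjusted p was 0.0527 to 0.0868 without any 1 of the plates of E11, E13, E15 and P4.

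Nrp1, the neuropilin shared by neurons and blood vessels, rose early as well but did not stay up. Its values were 15.2 and 14.1 CPM at E11, 123 CPM at E12, 67.6 and 99.0 CPM at E13, 33.7 and 62.6 CPM at E15, and 73.5 and 81.0 CPM at E18. They were 17.2 and 13.1 CPM at P4, 12.4 and 8.6 CPM at P7, and 9.0 and 9.5 CPM in the adult. The 7 plates from E12 to E18 were all above the 2 plates of E11 and the 6 later plates. Nrp1 rose 5.19-fold from E11 to E13 (2.37 ± 0.32, adjusted p = 0.00348) and fell 4.57-fold from E18 to P4 (-2.19 ± 0.32, adjusted p = 0.000991). The rise lost its call without E11 plate 1 (2.29, adjusted p = 0.0832) or plate 2 (2.24, adjusted p = 0.108) and in thinned wells (1.65, adjusted p = 0.356), while the fall held under all 27 alternatives. The summed vascular list (Cldn5, Pecam1, Flt1 and 6 more) was between 4.1 and 1343 CPM in positive wells, highest on E13 plate 2. It was 40.0 and 4.1 CPM at E11, 329 CPM on the E12 plate and 126 and 1343 CPM at E13, higher on each E12 and E13 plate than on either E11 plate. It was 18.7 and 11.6 CPM at E15, 130 and 209 CPM at E18 and 128 and 88.4 CPM at P4; its part in the Nrp1 results was not tested.

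Sema3f, the secreted ligand of neuropilin-2, was found in positive wells of the embryo and nearly disappeared after birth. It was 18.8 and 18.9 CPM at E11, 27.0 CPM at E12, 28.7 and 11.9 CPM at E13, 26.8 and 11.0 CPM at E15, and 23.3 and 13.0 CPM at E18. Postnatal plates gave 1.8 and 1.1 CPM at P4 and 0.40 and 1.1 CPM at P7. Adult plate 2 gave 1.0 CPM, and adult plate 1 gave 0 counts, where the floor of 3 counts stands at 5.39 CPM. No postnatal plate reached the lowest embryonic one. Sema3f fell 10.8-fold from E18 to P4 (-3.43 ± 0.65, adjusted p = 0.00413), a call missed without P4 plate 2 (adjusted p = 0.0526) and in thinned wells (-2.96, adjusted p = 0.105), and 24.1-fold from E11 to P7 (-4.59 ± 0.66, adjusted p = 0.000261), a call kept in all 27 alternatives.

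Sema3c, another secreted ligand, had its highest mean level at E15. Values were 8.5 and 9.1 CPM at E11, 32.5 CPM at E12, 8.9 and 16.5 CPM at E13, 129.7 and 40.6 CPM at E15, and 20.8 and 74.5 CPM at E18. They were 14.4 and 14.2 CPM at P4, 15.0 and 8.5 CPM at P7, and 19.8 and 4.2 CPM in the adult. The plates of E15 and E18 overlapped, and no step of Sema3c between neighbouring stages was called, E13 to E15 (2.84 ± 0.73, adjusted p = 0.132) included.

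Sema5a, the membrane-bound semaphorin, was low at E11 and E18 and higher at E13 and after birth. It measured 40.0 and 30.6 CPM at E11, 80.9 CPM at E12, 162 and 148 CPM at E13, 167 and 37.1 CPM at E15, and 42.9 and 20.3 CPM at E18. From P4 on it was 111 and 116 CPM, 167 and 145 CPM at P7, and 230.3 and 280.5 CPM in the adult. Both adult plates were above all earlier ones, and both P4 plates above both E18 plates. Sema5a rose 4.21-fold from E18 to P4 (2.08 ± 0.54, adjusted p = 0.0195) and 4.61-fold from E11 to P7 (2.21 ± 0.49, adjusted p = 0.00444). The first of these was lost without E18 plate 2 (adjusted p = 0.0944) or either P4 plate (0.0549 and 0.0614), and the second held in all 27 alternatives. The change of Sema5a from E11 to E13 was 2.02 ± 0.50 (adjusted p = 0.0662).

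Plxna4, the signalling partner of the neuropilins, had its low point at E13. Its levels were 36.6 and 60.2 CPM at E11, 34.9 CPM at E12, 5.5 and 12.8 CPM at E13 (8 and 14 counts), 23.1 and 30.5 CPM at E15, and 14.7 and 21.9 CPM at E18. Later plates held 61.0 and 73.1 CPM at P4, 51.2 and 46.9 CPM at P7, and 133 and 37.6 CPM in the adult. The E13 plates lay below all others. Plxna4 fell 5.97-fold from E11 to E13 (-2.58 ± 0.58, adjusted p = 0.0434) and rose 3.99-fold from E18 to P4 (2.00 ± 0.52, adjusted p = 0.0196). On the 5 C57BL/6 plates at E18, outside this fit, Plxna4 was at 77.9 to 118 CPM, above both P4 plates of the series. The mouse lines were not compared by a test. The fall of Plxna4 missed the threshold in 15 of 28 alternatives. Without 1 plate of E11 or E13 its adjusted p was 0.104 to 0.275, and without 1 plate of P4 or P7 it was 0.0579 to 0.0747. The rise was 0.71 (adjusted p = 0.341) when all kept wells were used, and it was lost without E18 plate 1 (1.73, adjusted p = 0.124) or P4 plate 2 (1.93, adjusted p = 0.0923).

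On E18 plate 1, where negative wells were the majority, levels in all kept wells departed from those in positive wells. Nrp1 was at 168 CPM in all kept wells and 73.5 CPM in positive wells, Plxna4 at 74.6 against 14.7 CPM, and Nrp2 at 403 against 751 CPM.

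Positive and negative wells of the same plate were then compared, with the plate as a block. On the 9 embryonic plates 4 of the 10 genes differed (19.6% of 12336 genes did), 1 higher (9.78%) and 3 lower (9.81%) in positive wells. On the 6 plates from P4 to adult 4 differed (42.6%), 1 higher (23.7%) and 3 lower (18.9%). On the 5 C57BL/6 plates at E18 6 differed (17.5% of 12963 genes), 1 higher (6.71%) and 5 lower (10.8%). Positive wells were deeper than negative ones, with medians of 9086 to 23963 against 3098 to 11600 counts per well on the series plates. Neural progenitor genes (Sox2, Vim, Nes and 7 more) summed to 952 to 5636 CPM in negative and 248 to 2056 CPM in positive wells of the embryonic plates. Vascular genes summed to 450 to 15166 CPM in postnatal negative wells and to 88 to 128 CPM in postnatal positive wells, and the oligodendrocyte list to 1279 to 10161 against 28.3 to 2739.9 CPM. A list of dissociation response genes (Fos, Jun, Hspa1a and 7 more) summed to 3413 to 7156 CPM in postnatal negative and 753 to 2111 CPM in postnatal positive wells. On embryonic plates the sums were 400.2 to 6904 CPM and 305 to 1359 CPM. The part of these lists in the differences below was not tested.

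**Figure D4:**
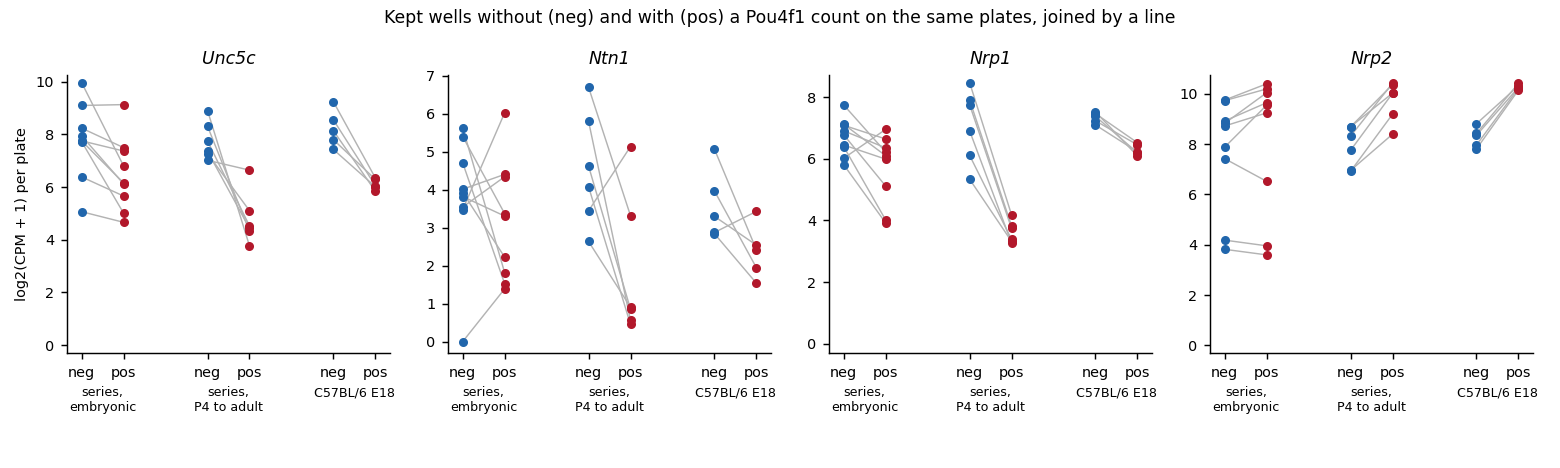
Levels of Unc5c, Ntn1, Nrp1 and Nrp2, log2(CPM + 1), in the Pou4f1-negative (blue) and Pou4f1-positive (red) kept wells of each plate; a line joins the 2 classes of 1 plate. In the plates from P4 to adult Nrp1 and Unc5c are lower and Nrp2 is higher in the positive wells of all 6 plates.

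Nrp2 was the only 1 of the 10 genes called higher in Pou4f1-positive wells, and it was called in all 3 sets of plates. On the plates from P4 to adult it was 336 to 1375 CPM in positive wells and 121 to 414 CPM in negative wells, higher in the positive wells of 6 of 6 plates. The difference was 4.21-fold (2.07 ± 0.24, adjusted p = 9.68e-07, edgeR). On C57BL/6 plates Nrp2 was 1135 to 1367 CPM in positive and 224 to 449 CPM in negative wells, without overlap and 4.10-fold apart (2.03 ± 0.16, adjusted p = 3.30e-05). On embryonic series plates the difference was 1.58-fold (0.66 ± 0.20, adjusted p = 0.0269), in the positive direction on 6 of 9 plates; the other 3 were the plates of E11 and E12. Nrp2's postnatal difference shrank to 0.38 (adjusted p = 0.128) in thinned wells. Thinning drops part of the Pou4f1 counts, so it also moved wells between the classes: the negative wells of P4 plate 1 went from 23 to 108. The embryonic difference of Nrp2 was 0.33 (adjusted p = 0.168) in thinned wells and 0.48 (adjusted p = 0.101) without E18 plate 1. It also missed the threshold without either E13 plate (adjusted p = 0.0542 and 0.0644), E15 plate 2 (0.0567) or E18 plate 2 (0.0656).

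Nrp1 showed the opposite pattern. Postnatal negative wells held 39.5 to 355 CPM and positive wells 8.6 to 17.2 CPM, without overlap, a difference of 11.7-fold (-3.54 ± 0.34, adjusted p = 1.34e-07). At E18 in C57BL/6 the ranges were 136 to 183 CPM in negative and 67.3 to 91.1 CPM in positive wells, again without overlap and 2.00-fold apart (-1.003 ± 0.13, adjusted p = 0.000461). Embryonic series plates differed by 1.90-fold (-0.93 ± 0.26, adjusted p = 0.0166), with negative wells higher on 8 of 9 plates. That embryonic call for Nrp1 was lost in thinned wells (adjusted p = 0.0564) and without E11 plate 1 (adjusted p = 0.0506).

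Within the series, the gap differed between embryonic and later plates for both neuropilins. In a fit with all 15 plates, the difference between positive and negative wells was more negative after birth for Nrp1, by 2.62 ± 0.42 on the log2 scale (interaction, adjusted p = 0.000464), and more positive for Nrp2, by 1.41 ± 0.31 (adjusted p = 0.00591). These were 2 of the 10 genes, 1 in the higher and 1 in the lower direction, against 11.3% of all genes tested (4.94% higher, 6.36% lower). In thinned wells the interaction was -2.17 (adjusted p = 0.0113) for Nrp1 and 0.05 (adjusted p = 0.989) for Nrp2. The C57BL/6 plates at E18, which were not in this fit, had an Nrp2 gap of 2.03 ± 0.16, beside 2.07 ± 0.24 on the postnatal and 0.66 ± 0.20 on the embryonic plates of the series. Their Nrp1 gap was -1.003 ± 0.13, beside -3.54 ± 0.34 and -0.93 ± 0.26. The embryonic plates include those of E11 and E12, where Nrp2 was at 11.1 to 90.8 CPM in positive wells.

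Unc5c was lower in positive wells of 8 of 9 embryonic plates, 6 of 6 later plates and 5 of 5 C57BL/6 plates. Its levels were 12.7 to 98.9 CPM in positive and 128 to 479 CPM in negative wells from P4 to adult, without overlap (-2.89 ± 0.48, adjusted p = 5.57e-05). In C57BL/6 mice they were 56.5 to 80.6 CPM and 171 to 605 CPM (-2.16 ± 0.21, adjusted p = 0.000104). The embryonic difference was -1.22 ± 0.38 (adjusted p = 0.0259), and Unc5c missed the threshold there without either E15 plate (adjusted p = 0.0674 and 0.0653), E11 plate 1 (0.0572) or the E12 plate (0.0564).

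Ntn1 was lower in positive wells of 5 of 6 postnatal plates (-3.35 ± 0.89, adjusted p = 0.00442), the exception being adult plate 1. These directions rest on few counts: negative wells held 1 count on P4 plate 1 and 2 on adult plate 1, and positive wells 2 on P7 plate 2, all under the floor of 3. The postnatal contrast gave no value for Ntn1 in thinned wells. Plxna4 was lower in positive wells of embryonic plates (-1.28 ± 0.41, adjusted p = 0.0342, 7 of 9 plates) and of C57BL/6 plates, where it was 77.9 to 118 CPM against 131 to 250 CPM (-1.04 ± 0.13, adjusted p = 0.000351). The embryonic Plxna4 difference missed the threshold when E15 plate 1 was left out (-0.82, adjusted p = 0.112), and likewise for E18 plate 1 (-1.05, 0.108), E15 plate 2 (-1.29, 0.0555) and E11 plate 1 (-1.29, 0.0694). In C57BL/6 mice Unc5d (-0.84 ± 0.17, adjusted p = 0.00545) and Sema5a (-0.56 ± 0.15, adjusted p = 0.0230) were also lower in positive wells, on 5 of 5 plates each. Neither was called on the series plates. There Unc5d was at 0.74 ± 0.55 on embryonic and 0.87 ± 0.73 on postnatal plates, both of the opposite sign. Sema5a was at -0.44 ± 0.30 and 0.20 ± 0.33. Sema5a lost its C57BL/6 call in 7 of 15 alternatives, with -0.04 (adjusted p = 0.953) in spliced counts. These include leaving out left plate 1 (adjusted p = 0.0859), right plate 1 (0.0636), right plate 2 (0.0744) or the plate of both sides (0.133).

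Dcc was not among the genes that differed by Pou4f1 class. Its embryonic levels were 2775 to 10458 CPM in positive and 3127 to 7148 CPM in negative wells (0.21 ± 0.21, adjusted p = 0.549), higher in positive wells of 5 of 9 plates. The postnatal difference of Dcc was 0.57 ± 0.26 (adjusted p = 0.0909) and that in C57BL/6 mice -0.41 ± 0.28 (adjusted p = 0.378). Sema3c and Sema3f were likewise not called in any of the 3 plate sets.

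The second set allowed a comparison of the 2 sides at E18, since the habenula of some vertebrates is asymmetric. Right against left, 0 of the 10 genes and 0 of 14614 genes (0%) passed the edgeR test; 155 genes had an unadjusted p under 0.05, none of them among the 10, and DESeq2 called 0 of all genes. Leaving out 1 plate gave 5 to 81 calls among all genes and 0 among the 10. Dcc was at 2343 and 2917 CPM on left and 2608 and 2115 CPM on right plates, so the sides overlapped (-0.19 ± 0.20). Nrp2 was at 1196 and 1221 CPM on left and 1276 and 1367 CPM on right plates (0.10 ± 0.17). The largest difference was that of Unc5d, 215.8 and 109.1 CPM on the left and 141 and 77.9 CPM on the right (-0.60 ± 0.33), with overlapping plates. The estimates of the other 7 genes lay between -0.47 ± 0.26 (Sema3c) and 0.01 ± 0.21 (Plxna4). Haemoglobin and other erythroid genes (5 measured) summed to 2327 and 19809 CPM on left and 3902 and 278 CPM on right plates.

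Set beside the E18 plates of the Brn3a-tauLacZ series, the 5 C57BL/6 plates held 2115 to 2917 CPM of Dcc against 9136 and 3529 CPM. They held 77.9 to 118 CPM of Plxna4 against 14.7 and 21.9 CPM, and 1135 to 1367 CPM of Nrp2 against 751 and 1058 CPM. The mouse line, the table and the handling differ together, so no test was made between them.

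Other genes of the same pathways were counted from lists. Of 14 other netrin-side genes tested, 11 differed between stages, as did 11 of 15 other semaphorins, 11 of 12 other plexins and co-receptors and 15 of 24 cytoplasmic transducers, beside 49.4% of all genes. From E11 to E13, when 1.78% of all genes were called, 2 genes of these lists were, 1 of 14 on the netrin side and 1 of 15 semaphorins. Ntn4, a further netrin, rose from 18.4 ± 3.5 to 48.3 ± 1.7 CPM (SD, n = 2; log2 change 1.27 ± 0.26, adjusted p = 0.0324, edgeR). Sema3e, a ligand that can signal through Plxnd1 without a neuropilin, fell from 76.6 ± 5.4 to 7.6 ± 9.5 CPM (-3.30 ± 0.60, adjusted p = 0.0189), and rose again from E18 to P4 (3.21 ± 0.59, adjusted p = 0.00343).

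From E18 to P4, when 9.97% of all genes rose and 10.4% fell, 3 of the 14 netrin-side genes tested rose and 3 fell. Ntng1, a membrane-anchored relative of the netrins, rose (3.25 ± 0.64, adjusted p = 0.00484) and Flrt2 rose (1.83 ± 0.57, adjusted p = 0.0403), whereas Flrt3 (-2.69 ± 0.47, adjusted p = 0.00274) and Draxin, a secreted ligand of DCC (-1.92 ± 0.58, adjusted p = 0.0369), fell. Draxin went from 139.9 ± 8.6 CPM at E11 to 25.7 ± 26.0 CPM at E18 and 2.8 ± 0.50 CPM at P7 (E11 to P7 -5.59 ± 0.55, adjusted p = 2.86e-05). Of the 15 other semaphorins tested 3 rose and 1 fell; the 1 that fell was Sema5b (-3.55 ± 0.80, adjusted p = 0.00960), the closest relative of Sema5a, which rose. Among the 12 plexins and co-receptors 2 rose, Chl1 (3.26 ± 0.49) and L1cam (2.41 ± 0.69), and 2 fell, Plxnb2 (-2.24 ± 0.42) and Cntn2 (-2.10 ± 0.39). Of the 24 transducers 4 rose, among them Mical2 (1.71 ± 0.53) and Trim9 (1.23 ± 0.33), and 1 fell, Rnd1 (-2.83 ± 0.77). These 5 of 24 were near the 20.4% of all genes called. The median change of the 10 genes was -1.66, against -0.34 for the netrin side, 0.54 for semaphorins, -0.18 for plexins and co-receptors, 0.20 for transducers and 0.01 over all genes. The 10 genes and the lists were chosen with earlier results of these data known, so these medians are descriptions only.

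From P7 to the adult, when 1.35% of all genes rose and 2.34% fell, no netrin-side gene was called. Of the semaphorins 2 fell, Sema4g (-1.72 ± 0.39) and Sema6c (-1.56 ± 0.34), and of the plexins 2 fell, Plxna3 (-1.06 ± 0.23) and Plxnb1 (-0.91 ± 0.19). The transducers included 5 that fell and 0 that rose, 4 of them of the collapsin response mediator family that carries semaphorin signals to microtubules: Dpysl3 (-2.92 ± 0.33, adjusted p = 0.000787), Crmp1 (-1.91 ± 0.37, adjusted p = 0.0157), Dpysl4 (-1.88 ± 0.27, adjusted p = 0.00288) and Dpysl5 (-1.26 ± 0.21, adjusted p = 0.00820). In the same wells the oligodendrocyte list summed to 123 and 28.3 CPM at P7 and to 2739.9 and 402 CPM in the adult, and the neuronal list to 6345 and 6549.6 CPM and to 5876 and 5480.0 CPM. Astrocyte genes summed to 59.7 and 43.4 CPM and to 407 and 269 CPM, and the dissociation response list to 851 and 1183 CPM and to 1831 and 2111 CPM. Adult plate 1 also had the mitochondrial share of 10.8%; the part of these in the changes from P7 to the adult was not tested. Between E13 and E15 (0.110% of all genes called) the only call in the lists was a fall of Flrt1, of the FLRT family that binds UNC5 receptors (-5.70 ± 0.89, adjusted p = 0.0375). Between E15 and E18 (0.159%) the only call was a fall of Plxna2 (-1.44 ± 0.20, adjusted p = 0.0280). None of the genes in these lists was called from P4 to P7 (0.00612% of all genes) or between the sides (0%).

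In the comparison of Pou4f1 classes, Unc5b, a further netrin receptor, was lower in positive wells of the embryonic (-1.67 ± 0.39, adjusted p = 0.00515), postnatal (-2.91 ± 0.50, adjusted p = 8.34e-05) and C57BL/6 plates (-1.89 ± 0.43, adjusted p = 0.0108), as was Unc5c. Rgmb, a ligand of the DCC relative neogenin, was higher in positive wells of the embryonic (0.90 ± 0.14, adjusted p = 0.000298) and C57BL/6 plates (2.07 ± 0.21, adjusted p = 0.000147). Of the 14 other netrin-side genes tested, 2 were higher and 1 lower in embryonic, 4 and 5 in postnatal and 3 and 6 in C57BL/6 positive wells. Of the other plexins and co-receptors these counts were 2 and 0 of 11, 5 and 2 of 11, and 3 and 2 of 10. Of the 15 other semaphorins tested, 4 were higher and 1 lower in embryonic, 5 and 1 in postnatal and 4 and 2 in C57BL/6 positive wells. Of all genes 9.78% were higher and 9.81% lower in embryonic, 23.7% and 18.9% in postnatal and 6.71% and 10.8% in C57BL/6 positive wells, and the postnatal count of semaphorins was near that background. Sema5b was lower in positive wells of all 3 plate sets, with log2 differences of -1.57 ± 0.42 in the embryonic, -3.36 ± 0.54 in the postnatal and -1.66 ± 0.20 in the C57BL/6 plates. Of the 23 transducers tested, 8 were higher and 2 lower in embryonic, 9 and 4 in postnatal and 1 and 3 in C57BL/6 positive wells. Of all genes 19.6%, 42.6% and 17.5% were called in either direction. The C57BL/6 count of transducers was near the background. So were the embryonic counts of netrin-side genes (3 of 14) and of plexins and co-receptors (2 of 11). Crmp1, of the collapsin response mediator family, was higher in all 3 sets (1.16 ± 0.19, 2.37 ± 0.25 and 0.83 ± 0.23). Dock1, which activates Rac below DCC, was lower in the same 3 sets (-2.55 ± 0.37, -4.62 ± 0.41 and -2.64 ± 0.28).

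The genes whose course over the 15 plates was closest to each of the 10 were found from the root mean square difference of centred log2(CPM + 1), among 8280 genes with a mean of at least 20 CPM. For Dcc these were Rcor2 (0.44) and Elavl2 (0.45), and for Sema3f Mycl and Nxn (both 0.47). Nrp1 was closest to Pou2f2 (0.51), Sema5a to Anxa7 (0.56), Plxna4 to Nap1l3 (0.60), Unc5c to Myl12a (0.63) and Unc5d to Bmp7 (0.66). Nrp2 was closest to Gm37121 (0.78), which overlaps it on the same strand and may share its reads, and to Robo3 (0.78), a receptor of commissural axons. Sema3c was closest to Tle4 (0.78) and Ntn1 to Cit (0.93). All these values share the plates and their depth, and they are given as descriptions.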

How the data were processed

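Per the labels' protocols, cells were lysed in 384-well plates with barcoded poly-T primers, a 6-base UMI and spike-in RNA. Reads were handled with Trim Galore and STAR 2.5.3a on mm10, per the submitters' processing notes; the counting program, its annotation and its strand setting were steps not given in the sources used here. What the authors deposited are expected counts: UMI numbers corrected for collisions among 4096 UMIs, of which 100% of the values above 0 gave whole UMIs (tolerance 1e-06) when the correction was inverted, and which were split into spliced and unspliced. The 92 spike-in rows were left out. Kept wells had at least 1000 counts, at least 500 genes and at most 20% mitochondrial counts; no doublet caller was run, and removing wells above 3 times their plate's median depth was an alternative. All plates carry the same well barcodes by design. Counts were summed per plate and Pou4f1 class (classes with at least 10 wells), rounded and tested with edgeR 4.0.16 (TMM scaling, filterByExpr, quasi-likelihood F tests, adjusted p under 0.05) in R 4.3.3; DESeq2 1.42.0 was an alternative. The design had foreseen plain counts, and the test was kept with rounded values. The stage fit used the 14 plates of the 7 stages with 2 plates, leaving out E12, whose levels are given only. The comparison of classes used the plate as a block. The scripts were tested on simulated data. The 10 genes, the gene lists and the rule for naming were chosen with earlier results of these data known: all 10 are named, from each pathway list at most the 4 called genes with the largest change in a comparison, and the 2 closest genes in course. Floors are 3 counts per plate, and cover counting error only. Gene positions are from GENCODE M21 (GRCm38), where 37938 of 37994 gene identifiers matched. A gene of the oligodendrocyte list is not reported here and was left out of its sums.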

Additional observations from a re-analysis of the deposited data

Results flagged for a closer look

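The gap between Pou4f1-positive and Pou4f1-negative wells of the same plate differed between the 9 embryonic plates and the 6 plates from P4 to adult for 2 of the 10 genes, against 11.3% of all 12336 genes tested, by a test of the difference itself (edgeR interaction term). For Nrp1 the postnatal minus embryonic log2 difference was -2.62 ± 0.42 (adjusted p = 0.000464), with positive wells lower on 8 of 9 embryonic and 6 of 6 later plates. For Nrp2 it was 1.41 ± 0.31 (adjusted p = 0.00591), with positive wells higher on 6 of 9 embryonic and 6 of 6 later plates. On the C57BL/6 plates at E18, outside this fit, the Nrp2 gap was 2.03 ± 0.16, beside 2.07 ± 0.24 on the postnatal plates of the series, and the Nrp1 gap -1.003 ± 0.13, beside -3.54 ± 0.34. The Nrp1 result held in 25 of 25 alternatives, and the Nrp2 result in 23 of 25. The Nrp2 difference was 0.05 (adjusted p = 0.989) in thinned wells and 1.25 (adjusted p = 0.575) without the plate block. The cells in the negative wells also differed between the ages: the oligodendrocyte list summed to 43.2 to 573 CPM in embryonic and to 1279 to 10161 CPM in later negative wells, and the neuronal list to 1713 to 10212 against 1185 to 2812 CPM. The dissociation response list summed to 400.2 to 6904 CPM in embryonic and to 3413 to 7156 CPM in later negative wells. Their part in the 2 results was not tested.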

How the results depend on the processing

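Without the filter on low counts, the counts of called genes among the 10 were 7 from E11 to E13, 5 from E13 to E15, 1 from E15 to E18, 9 from E18 to P4, 4 from P7 to adult and 5 for the difference of the Pou4f1 contrast between ages. DESeq2 called 5 and 2 in the first 2 steps. Leaving out wells of very high depth gave 6 from E11 to E13, 1 from E13 to E15 and 4 for the difference between ages. A Pou4f1 minimum of 2 gave 1 from E13 to E15. All kept wells gave 1 from P7 to adult. Thinned wells gave 0 from P7 to adult, 2 and 2 for the embryonic and postnatal Pou4f1 contrasts and 1 for their difference. Fits of only the 4 plates of a step gave 1 from P4 to P7 and 0 from P7 to adult. Without the plate block the embryonic Pou4f1 contrast gave 1 and the difference between ages 1. Leaving out 1 plate at a time gave 1 to 5 from E11 to E13 (1 without either E11 plate), 0 to 1 from E13 to E15, 0 to 1 from E15 to E18 (1 without E15 plate 2), 2 to 6 from E18 to P4 (2 without P4 plate 2), 0 to 2 from P7 to adult (0 without either P7 plate), 1 to 4 for the embryonic contrast (1 without E15 plate 2 or E11 plate 1) and 2 to 4 for the difference between ages (4 without adult plate 1). Over all genes the calls ranged from 32 to 1457 (291 as reported) from E11 to E13, 0 to 919 (18) from E13 to E15, 0 to 596 (26) from E15 to E18, 1038 to 4167 (3337) from E18 to P4, 0 to 681 (1) from P4 to P7, 65 to 1465 (602) from P7 to adult, 2956 to 9840 (5722) from E11 to P7, 3437 to 9939 (8078) over stages, 0 to 81 (0) between the sides, 370 to 3060 (2416), 282 to 6649 (5260) and 632 to 3417 (2274) for the embryonic, postnatal and C57BL/6 Pou4f1 contrasts and 35 to 1819 (1393) for the difference between ages. Fits without 1 plate assume that a lone plate varies like the other stages. The ranges over all genes are not split by alternative. The counts among the 10 in this paragraph therefore cannot be set against the share of all genes under the same alternative.

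Over 21 pairs of stages, with the genes that passed the filter over all 14 plates, plates with the same number deviated with correlations from -0.26 to 0.42, 1 of them above 0.1, so the numbers were not taken to pair the plates. With the genes of the 4 plates of a step the correlation was 0.47 from E15 to E18, where the block called 244 of all genes and the same plates without it 0. It was 0.20 between the sides. With the replicate block 1 of the 10 genes (26 of all genes) was called from E13 to E15; with the block on only the 4 plates of a step, 5 of the 10 (185) from E11 to E13, 1 (244) from E15 to E18 and 2 (681) from P4 to P7. Crossed numbers, an alternative added after seeing the data as was the block on 4 plates, gave 7 of the 10 (1411) from E11 to E13 and 3 (76) from E13 to E15.

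Signs turned in thinned wells for Unc5d (-0.22) and Ntn1 (-2.90) from P7 to adult and for Dcc (-0.0028) and Unc5d (-0.19) in the embryonic Pou4f1 contrast, and in spliced counts for Unc5d there (-0.31); of these only Ntn1 had been called. Thinned fits lacked adult plate 1, which kept 7 positive wells. The cause was not tested. In thinned wells Ntn1 and Sema3f missed the threshold over all 7 stages (adjusted p = 0.0717 and 0.0659). Of 80 stage levels, 17 moved by the SD of the plates or more when wells were averaged equally. With at least 3000 counts per well 1 moved, and with spliced counts alone 52. At E12, with 1 plate, the limit was the 95% counting interval. The spliced level is per spliced counts, so a gene's unspliced share moves it whatever its course. Depth limits Ntn1 and Sema3f, and adult plate 1 with 21 positive wells.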
